A study of Mus musculus with 8 samples.

Results

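Open chromatin was described at 9 mouse genes that hold back differentiation or belong to the bone morphogenetic protein (BMP) pathway that controls them: *Id1*, *Id2*, *Id3*, *Id4*, *Hmga1*, *Hmga2*, *Smad6*, *Smad7* and *Bmp4*. They were taken by name from the 21938 protein-coding genes of GENCODE mouse release M21. For each gene, the ATAC-seq peaks of the gene body and 50 kb on each side were collected. These windows held 144 of the 98066 regions left once overlapping peaks of all libraries had been merged, and 124 of the 144 had a peak in 2 or more libraries. A region that reached over the edge of a window was counted whole.

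Id proteins are helix-loop-helix proteins without a DNA-binding part. They pair with the E proteins TCF3, TCF4 and TCF12, keep them off their E-box sites and so hold back neuronal differentiation. BMP ligands such as BMP4 induce the *Id* genes through SMAD1 and SMAD5, and SMAD6 and SMAD7 are inhibitory SMADs that feed back on the same signal. HMGA1 and HMGA2 bind the minor groove of AT-rich DNA, and HMGA2 sustains the self-renewal of fetal neural stem cells.

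The cells were SN4741, a mouse line made from embryonic substantia nigra and described in the labels as wild-type neural precursor cells. Both groups carry a temperature-sensitive SV40 T antigen driven by a tyrosine hydroxylase promoter. All libraries are repeats of this 1 line, which the study says is reported to be clonal. Its own karyotyping of undifferentiated cells found an unstable polyploid line with most chromosomes triploid. The chromosome complement differed from cell to cell. The part of copy number in the results below was not tested. There were 4 libraries of cells kept at 37 °C in 10% serum and 4 of cells moved for 48 h to 39 °C and 0.5% serum. Temperature and serum changed together and cannot be told apart, and in a bulk library fewer cells with an open region and less opening per cell cannot be told apart either.

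Each library has its own peak list. The peak caller kept 49787392 to 169183346 fragments per library at 37 °C (49.8 to 169 M) and 52742394 to 71220050 at 39 °C, and the lists held 74026 to 92013 peaks at 37 °C and 54845 to 68410 at 39 °C. Every list at 37 °C was therefore longer than every list at 39 °C, and a loss of regions at 39 °C is the background against which each gene has to be read. Promoter peaks of the neural precursor markers were present in all 8 libraries at 5 of 7 genes (*Nes*, *Sox2*, *Pax6*, *Msi1* and *Vim*). *Sox1* had one in 4 libraries at 37 °C and 3 at 39 °C, and *Fabp7* had none. The mesenchymal markers *Col1a1*, *Col1a2*, *Twist1*, *Prrx1* and *Pdgfra* (5 of 5) also had promoter peaks in all 8 libraries, whereas *Ptprc* and *Gata1*, markers of blood cells, had none and *Spi1* had one in 3 libraries at 37 °C only. The part of other cell types in the results below was not tested.

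A promoter peak, meaning a peak within 1 kb of an annotated transcription start site (TSS) of the gene, was called in all 8 libraries at all 9 genes. Over all coding genes 13145 of 21938 (59.9%) had one in all 8. None of the 9 genes had its promoter called throughout one temperature and never at the other, a pattern seen at 2.13% of the 15065 coding genes with any promoter peak in the direction of 37 °C and at 0.0199% in the direction of 39 °C.

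The promoter regions of most of these genes were broad and near the top of their lists. A width here is the sum of the bases under all peaks of the merged region, which numbered up to 7 in a library at *Smad7*. Strength was taken as the percentile of −log10 q of the strongest of these peaks within its own list, 100 being the strongest peak of the library. Percentiles from lists of different length are not on a common scale. At *Smad7* the promoter region, which ran along nearly the whole gene, covered 27482 to 33675 bases in the 8 libraries at percentiles of 96.5 to 98.8, and only 12 or 13 of the 14009 promoter regions called in all libraries were wider in any library. The single peak at the *Smad7* start covered 33675, 27386, 17295 and 33324 bases at 37 °C and 29831, 15493, 17121 and 15044 at 39 °C. At *Id1*, *Id2* and *Id3* the regions covered 8651 to 10311, 8995 to 10101 and 10044 to 13216 bases. Their percentiles were 94.6 to 98.3, 94.6 to 96.7 and 94.1 to 97.1. The *Hmga1* region had 8842 to 12969 bases at percentiles of 90.3 to 94.8, but it also took in starts of *AI413582* and *C130040N14Rik* and was made of 2 or 3 peaks in 6 libraries. The single peak at the *Hmga1* start covered 5681 and 5621 bases in replicates 2 and 3 at 37 °C and 4445, 4901, 3695 and 3429 at 39 °C. In replicates 1 and 4 at 37 °C it was joined to the neighbour (12969 and 12594 bases), with its summit 9.28 kb from the *Hmga1* start. *Smad6* had 6770 to 7443 bases, *Hmga2* 5220 to 5713 and *Bmp4* 4007 to 9559. Some other regions also lay within 1 kb of starts of other genes. These were *Gm26001* at *Id3*, *A330033J07Rik* and *Gm49291* at *Id4*, *Gm20544* at *Smad7*, and *Gm15217* and *Gm15222* at *Bmp4*. *Id4* stood apart from the other *Id* genes, with 2642 to 3023 bases at percentiles of 92.3 to 95.1. The median promoter region covered 1757 to 2590 bases, depending on the library, so *Id4* was the closest of the 9 to an ordinary promoter in width.

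**Figure D1:**
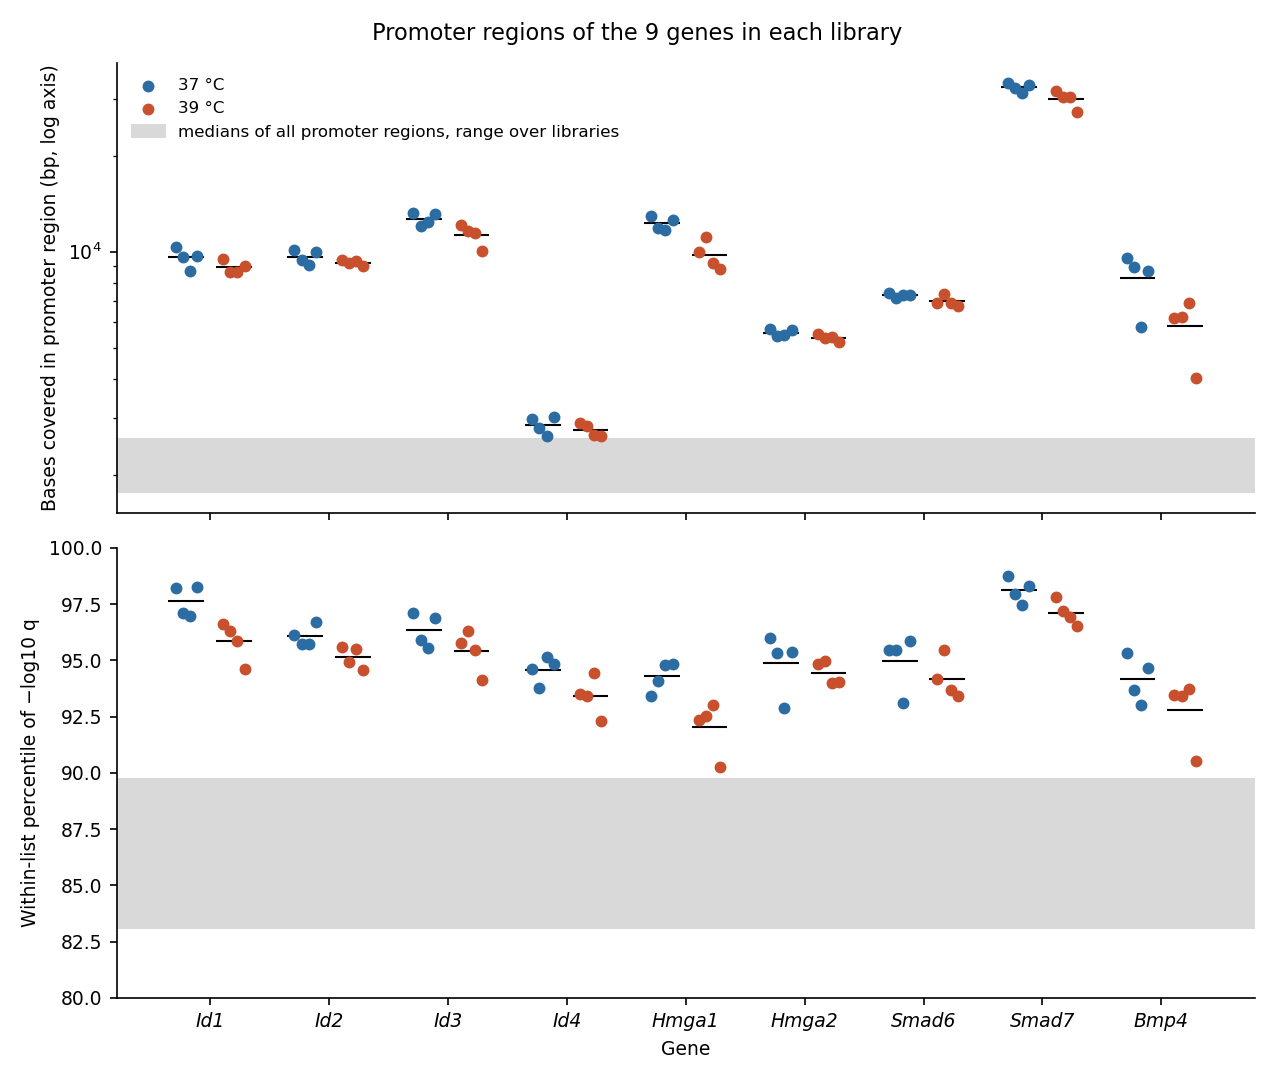
Bases covered by all peaks of the promoter region (upper panel, log axis) and the percentile of its strongest peak within the library's list (lower panel, axis from 80 to 100) for each of the 9 genes, 1 point per library with lines at the means of the 4 libraries at 37 °C (blue) and 39 °C (orange). The grey band is the range over libraries of the median of all promoter regions. *Smad7* is the widest at 27482 to 33675 bases, *Id4* lies near the band at 2642 to 3023, and the percentiles of all 9 genes are above the band in every library.

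At *Bmp4*, the ligand of the group, the peak lay inside the gene. The gene is on chromosome 14 from 46383520 to 46390669, minus strand (mm10). The strongest point of the peak was 3.12 to 3.24 kb inside the gene in every library, in an intron. It counted as a promoter peak because a transcript of *Bmp4* with a retained intron starts near it. The merged region was also near starts of *Gm15217* and *Gm15222*. At 37 °C the upstream edge of the peak went 79 bases past the annotated gene start in replicate 1 and 4 bases past it in replicate 4. It stopped 102 bases short of the start in replicate 2 and 1505 bases short in replicate 3, the library with the fewest fragments. At 39 °C the edge stopped 1424, 1514, 1505 and 1546 bases short in replicates 1 to 4. When only the starts of protein-coding transcripts were used, a promoter peak was left at *Bmp4* in replicates 1, 2 and 4 at 37 °C and in 0 libraries at 39 °C, and the other 8 genes kept theirs in all 8. Of 14790 coding genes with such a peak in any library, 3.62% had it in 3 or 4 libraries at 37 °C and in none at 39 °C. The fragments kept were 169, 64.2, 49.8 and 158 M in replicates 1 to 4 at 37 °C and 59.5, 71.2, 59.4 and 52.7 M at 39 °C, and the part of depth in this difference was not tested. At the other 8 genes the annotated gene start lay inside a peak in all 8 libraries.

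RefSeq promoter windows, from 250 bases before to 50 after the start (GRCm38.p6, the assembly of mm10), matched 7 of the 9 genes (*Id2*, *Id3*, *Id4*, *Hmga1*, *Hmga2*, *Smad6* and *Bmp4*). The SP and KLF factor word GGGCGG, searched on both strands, was in all 7, against 35.7% of the 32851 RefSeq windows. The word GGCGCC, known as a GC-rich site of SMAD1 and SMAD5, was in those of *Id2* and *Id4* (11.9% of all). The SMAD palindrome (GTCT and then AGAC) was in that of *Smad6* alone (0.213% of all). CCAAT, the NFY box, was in those of *Id2*, *Id4* and *Smad6* (37.4% of all), and TATAAA was in none of the 7 (13.6% of all). The ratio of observed to expected CpG was 0.988 at *Id4*, 0.972 to 0.975 at *Hmga1*, 0.952 at *Smad6*, 0.711 at *Id2*, 0.704 at *Id3*, 0.544 at *Hmga2* and 0.419 at *Bmp4*, where the median of all windows was 0.384. A match of letters is a description, not a site.

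The 250 bases before the annotated start are shown for 4 genes, 5′ to 3′ on the strand of the gene, because they include the promoter richest in these words (*Id4*), the inhibitory SMAD with 4 GC boxes there (*Smad6*, whose palindrome and CCAAT box lie at or past the start and so not wholly in these bases), the gene with the higher mean number of distal regions at 39 °C (*Hmga2*) and the start that the peak did not reach at 39 °C (*Bmp4*). Capitals mark the 5 words named above on either strand. In *Id4* a GGCGCC runs straight into a GC box. The positions are chr13:48260866-48261115 for *Id4*, chr9:64022060-64022309 (minus strand) for *Smad6*, chr10:120476470-120476719 (minus strand) for *Hmga2* and chr14:46390670-46390919 (minus strand) for *Bmp4*.
Id4: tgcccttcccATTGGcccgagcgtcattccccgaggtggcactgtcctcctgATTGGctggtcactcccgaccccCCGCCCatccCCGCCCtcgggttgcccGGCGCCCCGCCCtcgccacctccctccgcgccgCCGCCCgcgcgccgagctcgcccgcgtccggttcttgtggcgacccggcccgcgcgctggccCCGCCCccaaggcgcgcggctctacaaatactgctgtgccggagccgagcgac
Smad6: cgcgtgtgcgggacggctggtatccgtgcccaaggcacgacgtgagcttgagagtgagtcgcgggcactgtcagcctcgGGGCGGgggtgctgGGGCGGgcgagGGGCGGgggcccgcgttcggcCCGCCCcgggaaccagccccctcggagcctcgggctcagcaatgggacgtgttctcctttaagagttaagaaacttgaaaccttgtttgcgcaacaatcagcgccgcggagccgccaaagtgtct
Hmga2: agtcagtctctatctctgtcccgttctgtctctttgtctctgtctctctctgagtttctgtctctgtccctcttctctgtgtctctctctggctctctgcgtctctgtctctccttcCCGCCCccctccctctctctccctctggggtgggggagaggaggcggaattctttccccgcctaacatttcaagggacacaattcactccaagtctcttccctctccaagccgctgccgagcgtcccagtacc
Bmp4: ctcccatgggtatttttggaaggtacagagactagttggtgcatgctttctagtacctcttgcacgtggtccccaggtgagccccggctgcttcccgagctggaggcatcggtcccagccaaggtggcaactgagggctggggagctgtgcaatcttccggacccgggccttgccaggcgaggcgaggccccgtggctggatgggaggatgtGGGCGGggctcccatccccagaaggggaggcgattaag

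Regions farther than 1 kb from every annotated TSS are called distal here. The 9 windows held 117 of them, 98 with a call in 2 or more libraries and 43 with a call in all 8. Summed over the genes, a library called 70 to 97 distal regions at 37 °C and 50 to 64 at 39 °C. Fewer were called in every library at 39 °C than in any at 37 °C at 4 genes (*Id1*, *Hmga1*, *Smad6* and *Smad7*) and more at 0. Over the 18329 coding genes with a distal region the shares were 29.6% and 0.18%. No gene, among the 9 or elsewhere, passed a Benjamini-Hochberg adjusted p of 0.05 in the exact permutation test over the 70 assignments of libraries, which cannot give a p below 0.0286. The smallest adjusted p was 0.0959, and the median difference over all genes was -1.5 regions.

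*Id1* (chromosome 2, 152736251 to 152737410, plus strand) had fewer distal regions at 39 °C. At 37 °C the libraries called 13, 11, 12 and 13 distal regions and at 39 °C 8, 7, 7 and 6. The groups did not overlap, and the means were 12.2 ± 0.957 and 7 ± 0.816 (SD, n = 4 each; p = 0.0286 in the two-sided exact permutation test, adjusted p = 0.0959). A difference this far below 0 or farther was seen at 11.2% of coding genes. The groups were no longer apart with peaks of −log10 q of at least 5 (difference -4) and with deposited peaks counted in place of merged regions (difference -3.75), each with an exact permutation p of 0.0571.

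In these windows *Id2*, *Id3* and *Id4* did not separate by temperature. *Id2* had 9, 8, 6 and 9 regions at 37 °C and 5, 7, 6 and 3 at 39 °C (difference -2.75, exact permutation p = 0.0857). *Id3* had 9, 10, 8 and 10 against 6, 9, 8 and 8 (difference -1.5, exact permutation p = 0.2). The *Id3* value depended on the window and its definition, with a difference of -5.75 and groups apart at 100 kb each side (exact permutation p = 0.0286), -2.5 when regions at other genes' starts were counted too (exact permutation p = 0.0571) and -0.917 without 39 °C replicate 1. *Id4* had 2 in every library. For *Id2* and *Id3* the groups overlapped, and the same 2 regions of *Id4* were called throughout.

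*Hmga1* and *Hmga2*, the related architectural genes, had differences of opposite sign. *Hmga1* (chromosome 17, 27556497 to 27563674) had 7, 6, 6 and 9 distal regions at 37 °C and 2 in each library at 39 °C (difference -5, exact permutation p = 0.0286, adjusted p = 0.0959). *Hmga2* (chromosome 10, 120361275 to 120476469, minus strand) had 10, 9, 8 and 12 at 37 °C and 12, 15, 14 and 10 at 39 °C. Its groups overlapped, with means of 9.75 ± 1.71 and 12.8 ± 2.22 (SD, n = 4 each; difference 3, exact permutation p = 0.143, adjusted p = 0.276). *Hmga2* was the only 1 of the 9 with a higher mean at 39 °C, and a gain of 3 or more was seen at 26 of 18329 coding genes (0.142%). Here and in the other shares of coding genes the length of the window was not taken into account. *Hmga2*, at 115195 bases, was the longest of the 9 genes.

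With all peaks the inhibitory SMADs had the most distal regions at 37 °C and the largest differences in number. Their windows were longer than those of *Id1* and *Hmga1*, with genes of 68984 (*Smad6*) and 28407 bases (*Smad7*) against 1160 and 7178. The mean went from 19.8 to 12.2 at *Smad6* and from 7 to 2 at *Hmga1*. With peaks of −log10 q of at least 5 the *Smad7* difference was -3.75, against -4 at both *Id1* and *Hmga1*. *Smad6* (chromosome 9, 63953076 to 64022059, minus strand) had 22, 18, 16 and 23 at 37 °C and 13, 13, 13 and 10 at 39 °C (difference -7.5). *Smad7* had 18, 13, 10 and 15 against 8, 8, 9 and 8 (difference -5.75). Neither pair of groups overlapped (exact permutation p = 0.0286 for each, adjusted p = 0.0959). *Bmp4* had 3, 2, 2 and 4 against 2, 1, 2 and 1, groups that overlapped (difference -1.25, exact permutation p = 0.171).

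These differences depended on the length of the lists. When each list was cut to its 54845 strongest peaks, the length of the shortest, *Id1* had 8, 9, 7 and 9 distal regions at 37 °C and 6 in each library at 39 °C and was the only 1 of the 9 whose groups did not overlap (exact permutation p = 0.0286). At this setting 9.88% of coding genes had fewer in every library at 39 °C and 3.21% had more. *Hmga1* then had 3, 2, 2 and 3 against 2 in each (difference -0.5, exact permutation p = 0.429), *Smad6* 11, 12, 12 and 11 against 10, 10, 11 and 10, and *Smad7* 8, 8, 7 and 8 against 7, 8, 7 and 8. *Hmga2* had 5, 6, 5 and 5 against 6, 8, 6 and 11 (difference 2.5, exact permutation p = 0.0857), and a gain of that size or larger was seen at 0.641% of 17310 genes. The 11 came from replicate 4 at 39 °C, whose own list is the shortest and was thus used whole. With peaks of −log10 q of at least 5 the *Hmga2* difference was 0.5 (exact permutation p = 0.771). With deposited peaks of the whole lists counted in place of merged regions it was 4.25 and the groups were apart (exact permutation p = 0.0286). The share of all coding genes was not computed for that count.

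**Figure D2:**
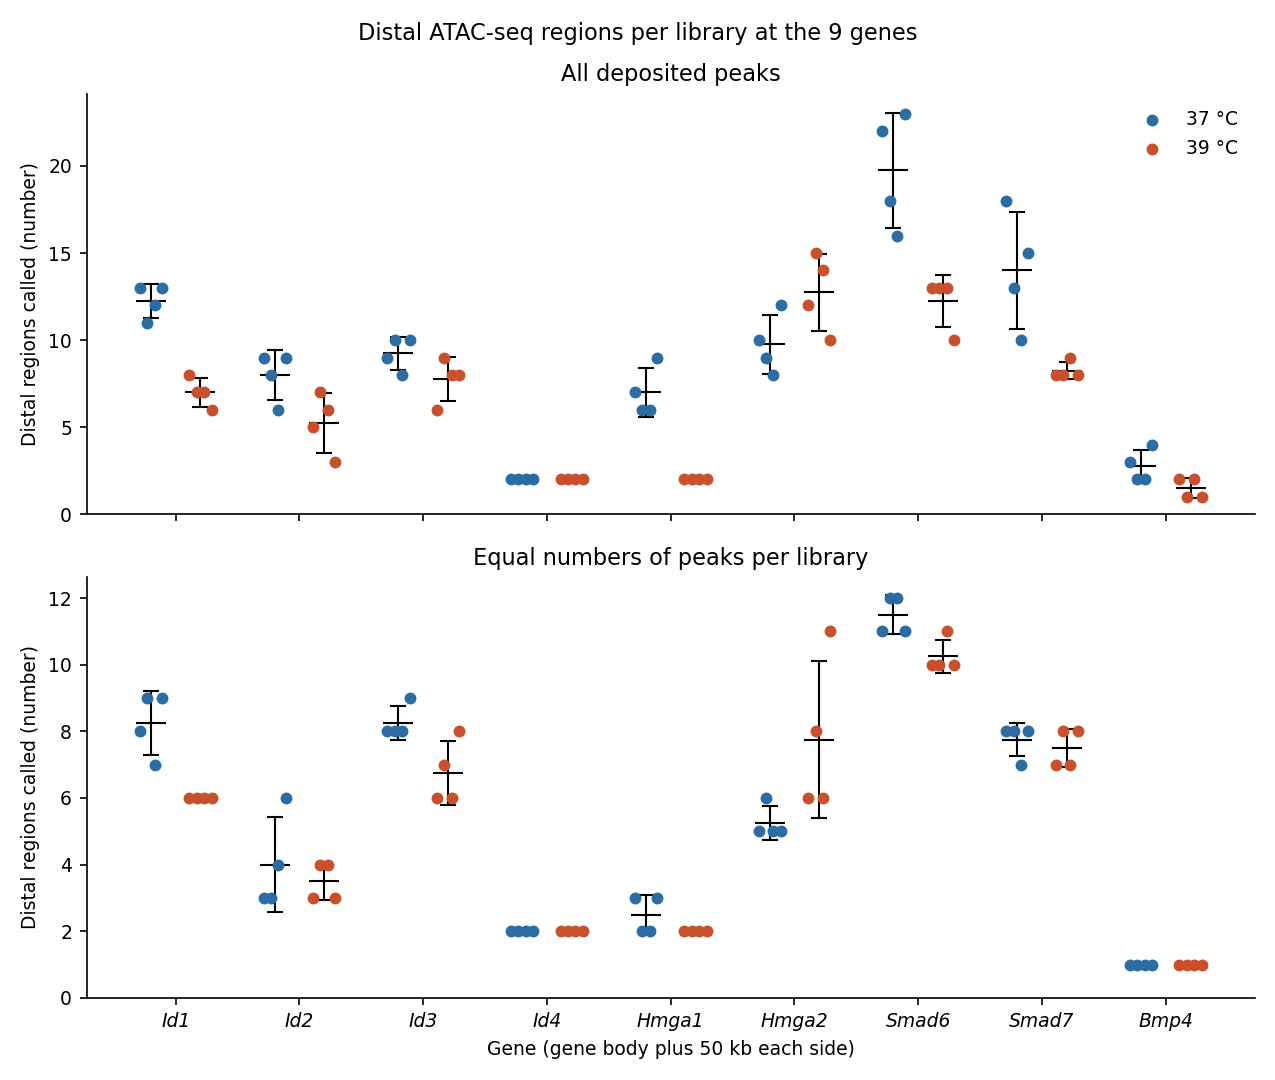
Number of distal regions called in the window of each gene (gene body plus 50 kb each side), 1 point per library with mean and SD of the 4 libraries at 37 °C (blue) and 39 °C (orange), from all deposited peaks (upper panel) and from the 54845 strongest peaks of each list (lower panel). With all peaks *Id1*, *Hmga1*, *Smad6* and *Smad7* do not overlap between temperatures, with equal numbers only *Id1* does not, and *Hmga2* has the higher mean at 39 °C in both.

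At *Hmga2* the regions without a call at 37 °C were weak and mostly in the first part of the gene. Of its 24 regions 9 had no call in any library at 37 °C, whereas the other 8 genes together had 0 such regions among 120. Among regions called in at least 2 libraries these were 6 of 19 at *Hmga2* and 0 of 105 at the other 8 genes. Those without a call at 39 °C were 2 of 19 and 30 of 105. Over all regions of the series called in at least 2 libraries 1.84% had no call at 37 °C and 21.2% none at 39 °C. Of the 9 *Hmga2* regions without a call at 37 °C 6 lay between 15.4 and 27.1 kb into the gene. The last of these 6 was at the start of the microRNA gene *Mir763*. Only the region 23.8 kb into the gene (chr10:120450865-120454447, in an intron) was called in all 4 libraries at 39 °C and in 0 at 37 °C. Its percentiles were 9.91, 17.6, 13.1 and 9.28 in replicates 1 to 4 and its peaks covered 2917, 3175, 1502 and 1789 bases. The 8 other regions without a call at 37 °C were called in 1 or 2 libraries each, at percentiles of 0.315 to 5.75, so all 9 were among the weak peaks of their lists. A region 118 kb from the start, past the 3′ end of the gene, was called in replicates 1, 3 and 4 at 37 °C at percentiles of 7.64, 8.34 and 3.47 and covered 2224, 321 and 973 bases there. At 39 °C all 4 libraries called it, at percentiles of 27.9, 25.3, 22.7 and 22.1 over 7208, 5732, 5017 and 4255 bases. Its groups did not overlap in percentile or width among the libraries that called it.

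The strongest distal region of *Hmga2* did not separate by temperature. It lay 54.2 kb into the gene in an intron (chr10:120420184-120424702) and had percentiles of 98.3, 96.8, 96.6 and 97.9 at 37 °C and 97.1, 97.6, 97.1 and 96.3 at 39 °C, above those of the gene's own promoter (92.9 to 96 and 94 to 95). Its groups overlapped.

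In the windows 10 regions were called in all 4 libraries at 37 °C and in 0 at 39 °C, and 1, the *Hmga2* region above, the other way round. That is 8.06% and 0.806% of the 124 regions called in at least 2 libraries. Over all 84777 such regions the shares were 6.04% and 0.314%, and over the 74107 in the windows of any coding gene 6.41% and 0.248%. Of the 10, 4 belonged to *Hmga1*, at 19.7, 12.8, 6.81 and 3.70 kb upstream of the gene, the last near the start of *Gm49773*. *Id1* had 2, at 6.34 and 4.12 kb upstream. *Id2* had 1 at 46.5 kb upstream, *Id3* had 1 at 37 kb downstream of its start near a start of *E2f2*, a cell cycle gene, and *Smad6* and *Smad7* had 1 each at 62.8 and 78 kb downstream of their starts. *Id4* and *Bmp4* had none.

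These regions were weak to middling within their lists. The *Id1* region at 6.34 kb had percentiles of 42.2, 43.6, 33.8 and 48.4 at 37 °C, the highest of the 10, and that at 4.12 kb 18, 17.5, 10.3 and 24.1. The *Hmga1* region at 19.7 kb had 38.4, 26, 19.5 and 42.2, and that at 6.81 kb 29.1, 27, 6.36 and 37.9. At both of these *Hmga1* regions the deep libraries, replicates 1 and 4, had the higher percentiles. With equal numbers of peaks 3 of the windows' regions were called at 37 °C only (2 at *Id1* and 1 at *Id3*) and 1, at *Hmga2*, at 39 °C only. At that setting the shares over 59056 regions were 2.68% and 1.92%.

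**Figure D3:**
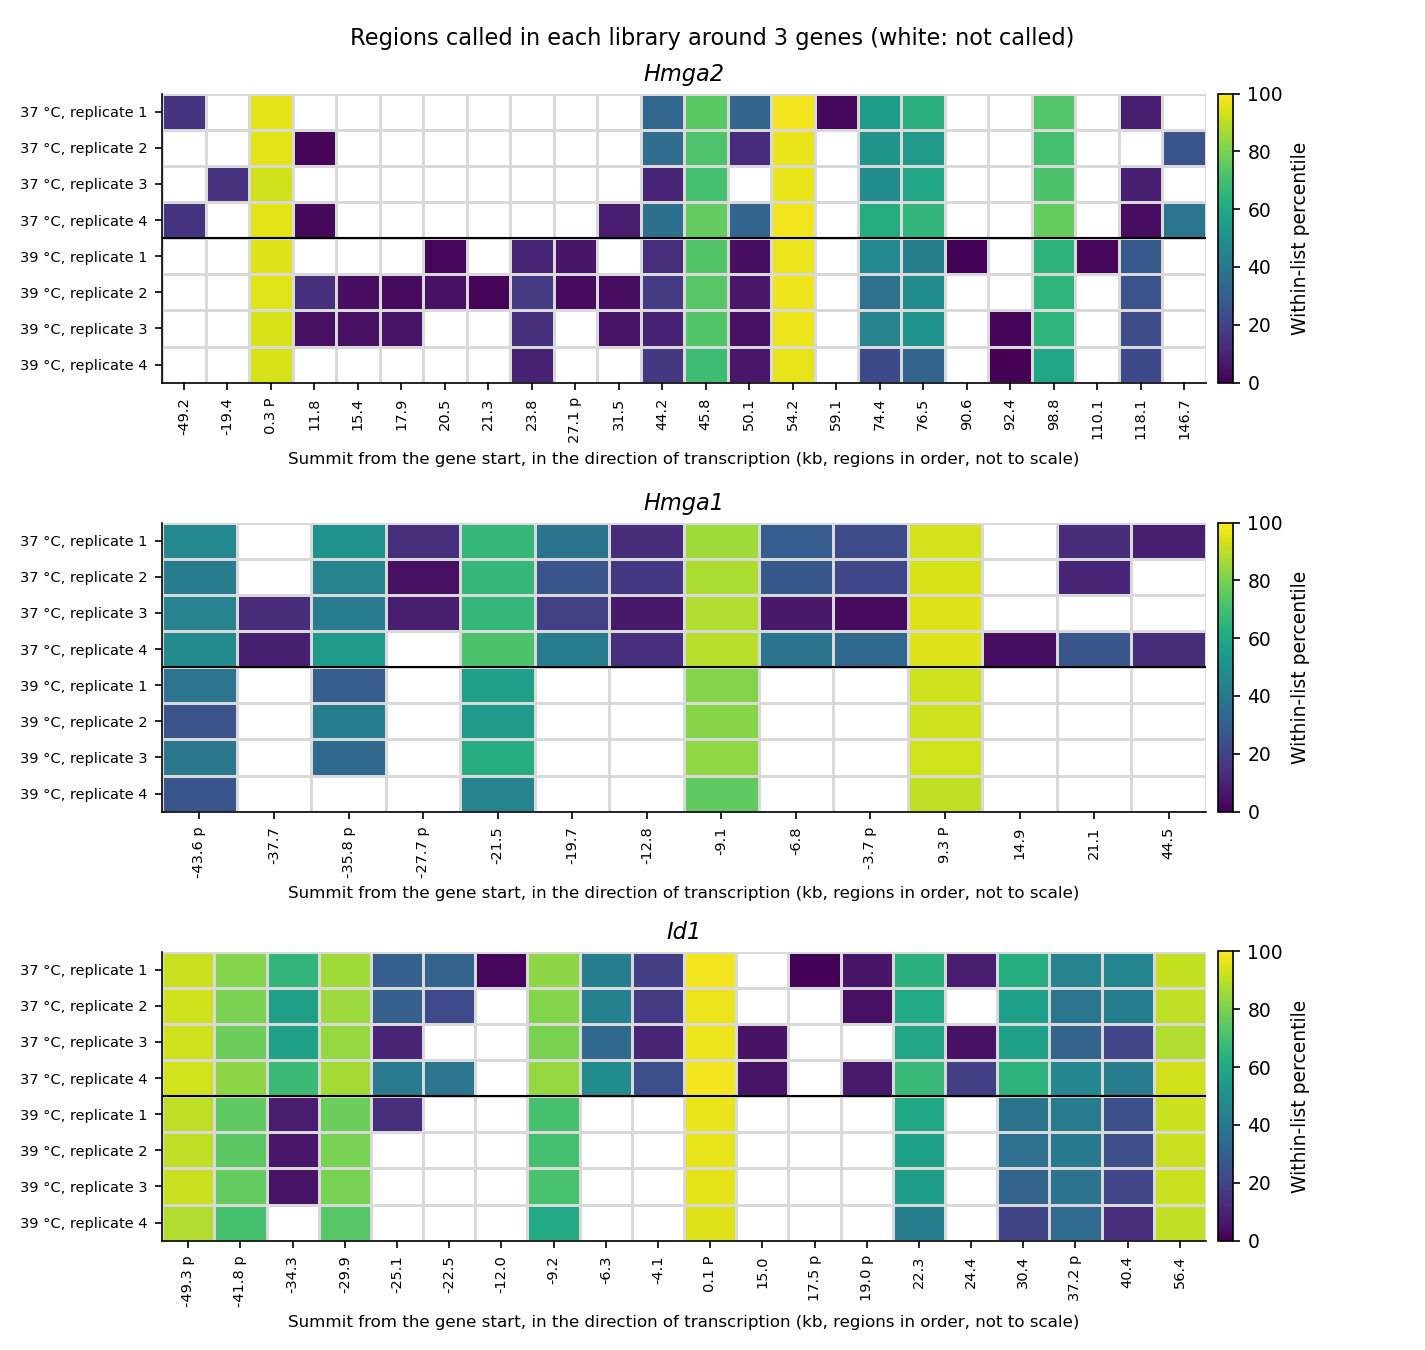
Regions in the windows of *Hmga2*, *Hmga1* and *Id1* (columns, in order along the direction of transcription, labelled by the distance of the summit from the gene start in kb and not drawn to scale; P, own promoter; p, promoter of another gene) in each library (rows), coloured by the percentile of the peak within its list, white where not called. *Hmga1* has 4 columns and *Id1* 2 that are filled only in all 4 libraries at 37 °C, and *Hmga2* has 1, at 23.8 kb, filled only in all 4 at 39 °C.

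The sequences below are the 300 bases around the summits of 3 regions called at 1 temperature only, 5′ to 3′ on the plus strand of mm10. Capitals mark, on either strand, the AP-1 word TGANTCA, the TEAD word GGAATG, the RUNX word TGNGGT and the p53 decamer. The *Id1* region at 6.34 kb (chr2:152729765-152730064) and the *Hmga2* region at 23.8 kb (chr10:120452500-120452799) hold none of the 4, and the *Hmga1* region at 19.7 kb (chr17:27536602-27536901) holds 1 TEAD and 2 RUNX words.
Id1 upstream, 37 °C only: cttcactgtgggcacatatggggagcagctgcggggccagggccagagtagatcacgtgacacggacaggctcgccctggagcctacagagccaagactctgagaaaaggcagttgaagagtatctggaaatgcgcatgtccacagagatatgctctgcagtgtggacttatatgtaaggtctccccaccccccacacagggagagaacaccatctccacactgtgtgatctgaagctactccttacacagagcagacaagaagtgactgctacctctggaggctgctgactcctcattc
Hmga1 upstream, 37 °C only: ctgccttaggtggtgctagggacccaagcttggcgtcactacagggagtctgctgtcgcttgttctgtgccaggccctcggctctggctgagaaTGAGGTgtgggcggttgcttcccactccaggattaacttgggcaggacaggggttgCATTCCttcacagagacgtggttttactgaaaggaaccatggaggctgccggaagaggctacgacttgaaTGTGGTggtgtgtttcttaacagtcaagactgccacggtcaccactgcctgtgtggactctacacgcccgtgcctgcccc
Hmga2 intron, 39 °C only: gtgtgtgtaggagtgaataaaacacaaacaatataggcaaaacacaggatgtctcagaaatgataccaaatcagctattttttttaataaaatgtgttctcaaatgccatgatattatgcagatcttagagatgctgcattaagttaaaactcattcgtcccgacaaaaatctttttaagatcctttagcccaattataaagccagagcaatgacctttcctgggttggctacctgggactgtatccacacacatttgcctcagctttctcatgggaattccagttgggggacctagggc

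Of the 10 regions called at 37 °C only, 1 held the AP-1 word, against 23.5% of all regions of that kind, and 7 held the RUNX word, against 57.9%. Of the 9 strongest distal regions, 1 per gene, 7 held TGANTCA, where 55.6% of the 11274 distal regions called in all 8 libraries with a mean percentile of at least 64.8 did. That of *Id1*, in *Bcl2l1*, had its searched bases outside the window and did not hold the word. Among all distal regions with a call in 2 or more libraries 38.5% held it. Among the 98 distal regions of the windows 33.7% held it. GGCGCC was in 9 of these 98 (9.18%), against 2.70% of the 62699 distal regions of the series, and CCAAT in 38.8% against 31.6%.

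The strongest distal regions of 4 genes are shown in the same way, because they were open in every library and hold the AP-1 word. They lie 54.2 kb into *Hmga2* (chr10:120422111-120422410), 13.4 kb upstream of *Id2* (chr12:25110346-25110645), 26.2 kb upstream of *Id3* (chr4:136117107-136117406) and 17.9 kb upstream of *Bmp4* (chr14:46408413-46408712).
Hmga2 intron: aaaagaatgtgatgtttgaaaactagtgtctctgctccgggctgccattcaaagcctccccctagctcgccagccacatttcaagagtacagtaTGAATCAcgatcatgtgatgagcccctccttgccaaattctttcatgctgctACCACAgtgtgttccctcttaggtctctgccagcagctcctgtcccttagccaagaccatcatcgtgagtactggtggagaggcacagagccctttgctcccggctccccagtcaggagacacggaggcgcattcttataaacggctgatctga
Id2 upstream: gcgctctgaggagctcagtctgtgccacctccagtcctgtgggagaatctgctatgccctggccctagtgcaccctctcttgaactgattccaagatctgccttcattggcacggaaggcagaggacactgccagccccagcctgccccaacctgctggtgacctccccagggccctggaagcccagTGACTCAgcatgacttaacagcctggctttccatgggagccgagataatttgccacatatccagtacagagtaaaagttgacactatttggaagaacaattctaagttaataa
Id3 upstream: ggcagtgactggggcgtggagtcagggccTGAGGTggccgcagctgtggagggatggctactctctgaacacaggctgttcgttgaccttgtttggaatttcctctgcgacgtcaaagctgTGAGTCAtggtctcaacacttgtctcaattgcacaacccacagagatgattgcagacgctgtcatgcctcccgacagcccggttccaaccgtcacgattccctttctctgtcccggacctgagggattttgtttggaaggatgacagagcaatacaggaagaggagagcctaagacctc
Bmp4 upstream: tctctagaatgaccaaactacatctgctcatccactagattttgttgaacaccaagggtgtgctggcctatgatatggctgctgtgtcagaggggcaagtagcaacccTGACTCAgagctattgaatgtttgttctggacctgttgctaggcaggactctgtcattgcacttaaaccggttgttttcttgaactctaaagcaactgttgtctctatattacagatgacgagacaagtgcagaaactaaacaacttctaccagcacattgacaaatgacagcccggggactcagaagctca

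In the windows 61 regions were called in all 8 libraries, and limma was fitted to all 44861 such regions of the genome. On the percentile within the whole list 46 of the 61 were lower at 39 °C and 0 higher at an adjusted p under 0.05, where 63.7% of all regions were lower and 1.64% higher. This scale moves with the length of the list, and the median over all regions was -6.84 points. When ranks were taken among the 44861 shared regions only, the median over all regions was -0.148. Then 17 of the 61 were lower and 5 higher, where 22.6% and 20.5% of all regions were. The following values are on this second scale, which is a rank from 0 to 100 among the shared regions.

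Of the 17 regions that fell in rank 15 were distal, as were 43 of the 61. The region 35 kb upstream of *Id2* fell by 19.2 ± 2.14 points (SE; limma adjusted p = 3.6e-06), the largest fall among the 61. Within the whole lists its percentiles were 73.7, 71.5, 69.1 and 74.9 at 37 °C and 51, 48.6, 56.6 and 37.8 at 39 °C, with no overlap. The region 45.9 kb upstream of *Smad6* fell by 17.5 ± 2.3 and that 30.4 kb downstream of the *Id1* start by 16.2 ± 2.50. *Id1* had 4 regions that fell, the region 9.2 kb upstream (by 11.2 ± 1.25) and its own promoter (by 1.58 ± 0.585, limma adjusted p = 0.0394) among them. *Id1* was the only 1 of the 9 genes whose promoter region fell on this scale. Within the whole lists it had percentiles of 98.2, 97.1, 97 and 98.3 at 37 °C and 96.6, 96.3, 95.9 and 94.6 at 39 °C. Over the 6 libraries that had under 100 M fragments its difference on the whole-list scale was -1.21 points (limma adjusted p = 0.0972), against -1.81 (limma adjusted p = 0.000504) over all 8. The promoters of the other 8 genes differed by -0.671 to 1.36 points, none past the threshold.

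Another 5 regions rose in rank. The largest rises were 12.3 ± 2.46 points at 37.2 kb downstream of the *Id1* start, next to *Gm23802*, and 9.29 ± 1.30 at 45.8 kb into *Hmga2* (limma adjusted p = 3.2e-05). The others were 5.21 ± 0.903 at 56.4 kb downstream of the *Id1* start in *Bcl2l1*, an anti-apoptotic gene, 3.91 ± 1.26 at 53.5 kb downstream of the *Id4* start and 2.24 ± 0.867 at 94.2 kb downstream of the *Smad6* start, near *Gm36033*. The region in *Bcl2l1* only reached into the *Id1* window, which ended at position 152787410. Its summit, at 152792672, lay outside. Of the 5, only the region in *Bcl2l1* was also higher on the whole-list scale (by 1.07 points, limma adjusted p = 0.236). The other regions of *Id1*, *Id4* and *Smad6* were lower there, with differences of -1.61, -3.21 and -0.892 points that did not pass the threshold. *Hmga2* had 0 regions that fell and 1 that rose among 7, *Smad7* had 5 that fell and 0 that rose among 9, and *Bmp4* had none of either among 3. Within the whole lists the *Hmga2* region at 45.8 kb had percentiles of 74.5, 72.1, 70.2 and 76.1 at 37 °C and 72.7, 73.5, 72.8 and 68.8 at 39 °C, so the groups overlapped on that scale. The difference there was -1.27 points (limma adjusted p = 0.659) over all libraries and 0.801 (limma adjusted p = 0.847) over the 6 libraries that had under 100 M fragments.

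**Figure D4:**
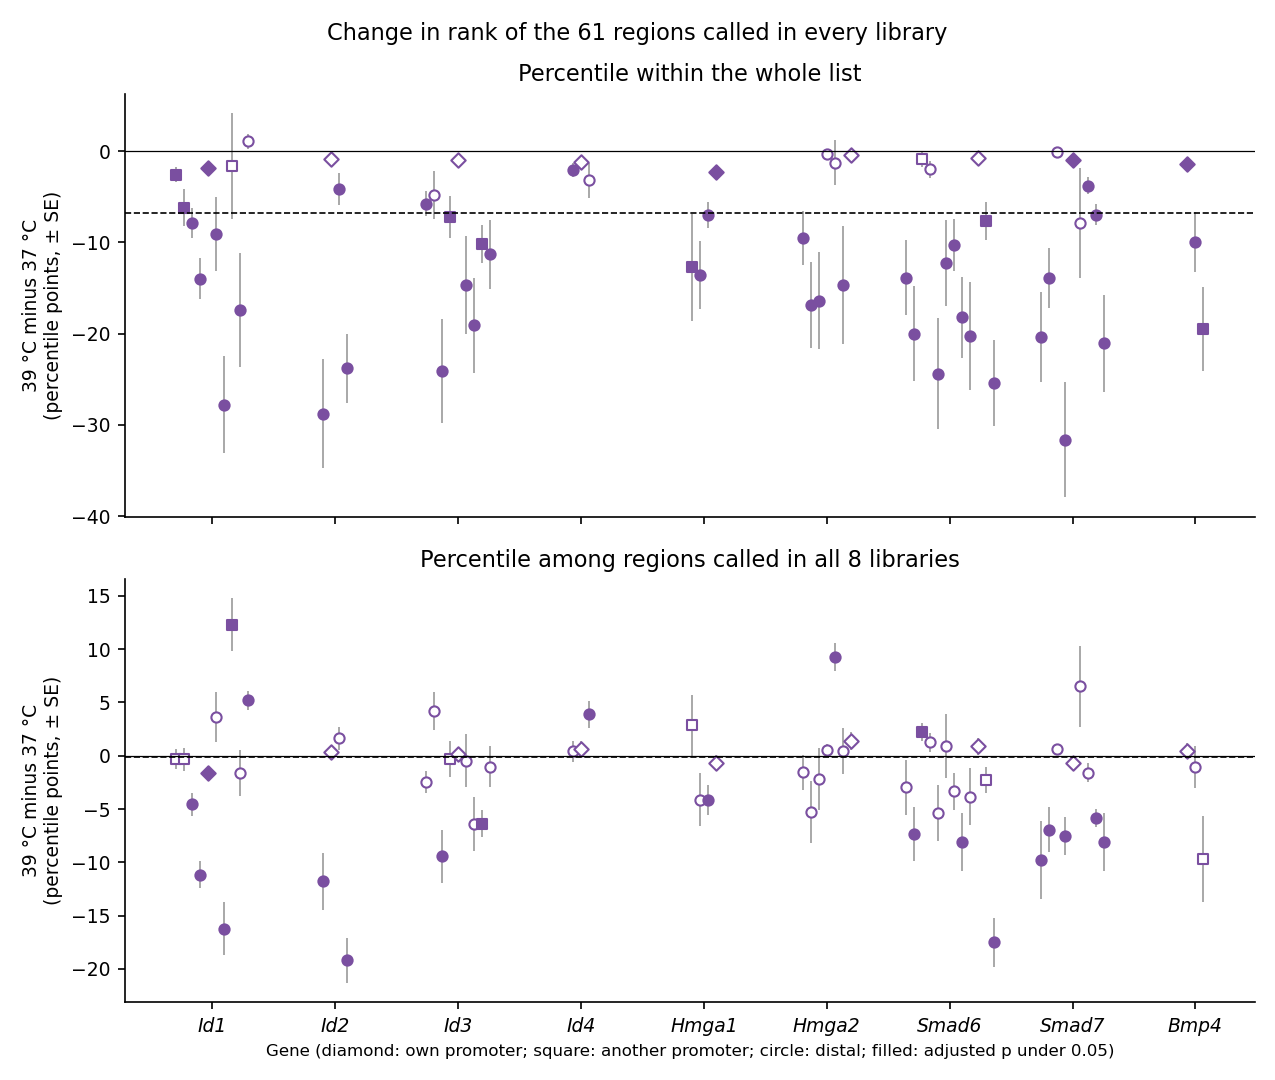
Difference in percentile between 39 °C and 37 °C (percentile points, ± SE from limma) for the 61 regions called in all 8 libraries, by gene, on the percentile within the whole list (upper panel) and among the 44861 shared regions (lower panel). Diamonds are own promoters, squares other promoters, circles distal regions, filled symbols have an adjusted p under 0.05, and the dashed line is the median over all regions, -6.84 and -0.148. In the lower panel 17 regions are filled below 0 and 5 above.

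The strongest distal region of each gene was called in all 8 libraries. That of *Smad7*, 24.7 kb upstream, had whole-list percentiles of 97.3 to 98.6 over the libraries. It was the strongest by mean percentile (98.0), followed by that of *Hmga2* (97.2). Those of *Id4* (33.3 kb upstream), *Smad6* (80.1 kb downstream of its start) and *Hmga1* (9.09 kb upstream, in an exon of *Gm49774*) had 87.3 to 93, 86.2 to 91.4 and 75.8 to 89.3. On the rank among shared regions the *Hmga1* region fell by 4.18 ± 1.39 points (SE; limma adjusted p = 0.0234) and the *Id1* region rose. That *Id1* region is the one in *Bcl2l1*, whose summit lay outside the *Id1* window. The strongest regions of the other 7 genes differed by -2.43 to 1.63 points, none past the threshold.

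Peaks at 15 of the 61 regions were narrower at 39 °C and at 0 wider, where 16.1% and 0.381% of all regions were, with a median log2 difference of -0.294 at the 61 and -0.239 over all. With widths centred on the median region of each library 11 were narrower and 2 wider, where 10.2% and 10.6% of all regions were. *Smad7* had 5 of the 15 and *Smad6* 3. Among the promoter regions only that of *Hmga1*, with the neighbouring starts it takes in, was narrower, by a log2 difference of -0.331 ± 0.0862 (SE; limma adjusted p = 0.032), with 12969, 11887, 11656 and 12594 bases at 37 °C and 9978, 11123, 9224 and 8842 at 39 °C. After centring it was not past the threshold (limma adjusted p = 0.831).

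Of 39 other genes of these pathways 33 had a promoter peak in all 8 libraries, where 59.9% of all coding genes did. All 6 of the other SMADs listed (*Smad1*, *Smad2*, *Smad3*, *Smad4*, *Smad5* and *Smad9*) and all 3 E proteins, the partners of the Id proteins, had one throughout. So did 6 of 7 BMP receptors, with none at *Bmpr1b*, and 9 antagonists and inhibitors. Of 6 other BMP ligands 4 had one throughout (*Bmp2*, *Bmp6*, *Gdf5* and *Gdf6*), *Bmp5* had none, and *Bmp7* had one in 1 library at 37 °C. In the group around HMGA2, *Lin28a* had none and *Lin28b*, which blocks the maturation of let-7 microRNAs that target *Hmga2*, had one in 1 library at 37 °C. *Cdkn2a* and *Cdkn2b*, cell cycle inhibitors held down by HMGA2, and *Igf2bp1*, *Igf2bp2* and *Igf2bp3* had promoter peaks in all 8. No pathway gene differed by 2 or more libraries between temperatures. Distal regions did not overlap between temperatures at 8 of the 39, all with fewer at 39 °C, where 29.6% of coding genes did so. The largest of these differences was at *Tcf3*, with 17, 17, 12 and 19 distal regions at 37 °C and 4 in each library at 39 °C. *Bmp2* had 1, 0, 0 and 1 at 37 °C and 2, 2, 2 and 1 at 39 °C, groups that overlapped.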

How the data were processed

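ATAC-seq was performed by the authors on SN4741 cells, 4 libraries at 37 °C and 4 at 39 °C. The authors aligned reads to mm10 with Bowtie2 2.4.1, describe duplicate removal with SAMtools 1.15.1 and Picard 2.26.11 and called peaks with MACS3 3.0.0a7 in each library at a q of 0.05, with no control and no local background. Per the file headers the caller still found 15 to 37% of fragments redundant and kept 1 fragment per position. Replicates were not pooled. The study describes a blacklist filter, but the peak numbers run without a gap in each list. The deposited lists give per peak its position, its pileup signal in fragments without scaling, its fold enrichment (a ratio to 1 background for the genome) and its −log10 p-value and q-value. The lists hold no counts per region, so presence, width and the rank of −log10 q within a list were used.

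Peaks sharing 1 base or more were merged. Starts were those of all GENCODE M21 transcripts. Numbers of regions were set against each other with a two-sided exact permutation test (Python 3.11.15, NumPy 2.4.6). Percentiles and log2 widths were tested with limma 3.58.1 in R 4.3.3 (eBayes with trend and robust) and Benjamini-Hochberg adjustment over all regions called in all 8 libraries. The scripts were tested on simulated data. Motifs were searched as 10 exact words on both strands in 300 bases around the median summit of each region. Nothing in the labels says that the libraries came from separate cultures, so p-values measure the spread between these libraries, which may be technical. Shown promoter sequences are the RefSeq bases before the start instead of summit windows. Depth was the number of fragments kept by the caller.

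The 9 genes and the gene and motif lists were chosen with earlier results of these data known. Named regions were the promoter regions, the regions called at 1 temperature only and the strongest distal region of each gene, with pathway genes that had no promoter peak or differed by 2 or more libraries. Among these pathway genes 1 is not reported here. Regions named for a change in rank or width, weak *Hmga2* regions, the peak edge of *Bmp4*, the pathway genes with a promoter peak in 1 library only, *Tcf3* and *Bmp2* were chosen after their values were seen. Alternatives were peaks of −log10 q at least 5, equal numbers of peaks, libraries under 100 M fragments, other distances and windows, other scales, a replicate block, and each library left out in turn. RNA and promoter capture data of the study were not used here.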

Additional observations from a re-analysis of the deposited data

Results flagged for a closer look

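Among the groups examined 4 values lay apart from the other 3 libraries of their temperature. The groups of 4 numbered 54, and chance gives about 1 such value in 20 groups of continuous values. The 2 counts are whole numbers with ties, for which any single differing library stands apart in this way. *Smad6* had 10 distal regions in 39 °C replicate 4 against 13 in each of the others, and *Smad7* had 9 in 39 °C replicate 3 against 8 in each of the others. The *Smad6* promoter peak had a percentile of 93.1 in 37 °C replicate 3, the library with the fewest fragments, against 95.5 to 95.9 in the others. The *Bmp4* promoter peak had a percentile of 90.5 in 39 °C replicate 4, the library with the shortest list, against 93.4 to 93.7 in the others.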

How the results depend on the processing

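All 9 promoters were called throughout under each alternative but one: with starts of coding transcripts only there were 8, without *Bmp4*. Regions called at 37 °C only numbered 10, 3 with equal numbers of peaks and 21 with 100 kb windows. Those at 39 °C only numbered 1, and 2 with 100 bases on each side of summits. Genes with fewer distal regions in every 39 °C library numbered 4, 1 with equal numbers, 3 with −log10 q of at least 5 and with deposited peaks counted (both without *Id1*), 3 with 20 kb windows (without *Smad7*, difference -1, exact permutation p = 0.114) and 5 with 100 kb windows (with *Id3*, difference -5.75, exact permutation p = 0.0286), and genes with more numbered 0, and 1 (*Hmga2*) with deposited peaks counted and with libraries under 100 M fragments. Pathway genes with a promoter peak in fewer 39 °C libraries numbered 2, 0 with −log10 q of at least 5 or equal numbers and 1 under 100 M fragments, and in more 39 °C libraries 0, and 1 with equal numbers. Regions lower in percentile numbered 46, 17 among shared regions, 18 with equal numbers and 27 under 100 M fragments. Regions higher numbered 0, 5 and 4 at the first 2 of these. Narrower regions numbered 15 and 5 under 100 M fragments, and wider ones 0 and 2 after centring.

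Signs turned for percentile differences. Among shared regions and with equal numbers they were 0.332 and 0.242 at the *Id2* promoter, 0.185 and 0.126 at *Id3*, 0.654 and 0.496 at *Id4*, 1.36 and 1.10 at *Hmga2*, 0.879 and 0.695 at *Smad6*, 0.488 and 0.365 at *Bmp4*, 0.513 and 0.408 at the *Hmga2* region at 54.2 kb, and 9.29 and 7.35 at that at 45.8 kb. Under 100 M fragments these *Hmga2* values were 0.341, 0.350 and 0.801. Of these only the region at 45.8 kb passed the threshold, at the first 2 settings. The rises among shared regions at 37.2 kb from *Id1*, 53.5 kb from *Id4* and 94.2 kb from *Smad6* (12.3, 3.91 and 2.24 points, past the threshold) were also of the other sign within whole lists (-1.61, -3.21 and -0.892). The *Id1* promoter difference lost the threshold under 100 M fragments.

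Leaving out each library in turn gave 10 to 16 regions called at 37 °C only (16 without 37 °C replicate 3) and 1 to 2 at 39 °C only (2 without 39 °C replicate 2), 4 to 5 genes with fewer distal regions, 0 with more, 39 to 50 regions lower and 0 to 1 higher in percentile (1 without 37 °C replicate 2), and 8 to 23 narrower and 0 to 1 wider (1 without 37 °C replicate 2), with 9 narrower without 37 °C replicate 1, 23 without replicate 3 and 8 without replicate 4. The *Hmga2* difference stayed between 2.42 and 3.92 distal regions.

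Same-numbered libraries did not deviate together (correlations 0.256, -0.153, -0.189 and -0.479). With 4 libraries per temperature, of unequal depth, this check cannot decide whether the numbers pair them. With a replicate block 33 regions were lower in percentile and 12 narrower, and the exact sign-flip test, which cannot go below 0.125, gave the distal counts of *Id1*, *Hmga1*, *Smad6* and *Smad7* that p.

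The lists limit what can be said: a region missing from a list was not detected at that library's depth, and weak calls such as those in *Hmga2* lie near this limit.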
